A study of Mus musculus with 9 samples.

Results

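CXC chemokines and their receptors were described by 6 mouse genes, the chemokine genes Cxcl1, Cxcl2, Cxcl9 and Cxcl10 and the receptor genes Cxcr2 and Cxcr4. Every probe set whose platform symbol is exactly one of these names was taken, which gave 7 of the 12488 probe sets on the array, 2 for Cxcl1 and 1 for each other gene. Of the 7, 6 passed the filter on low values and entered the tests, and the Cxcl9 probe set did not. RNA came from CD11b+ spleen cells of female mice, 8 to 12 weeks old, and each of 9 Affymetrix MG-U74Av2 arrays gave a MAS5 signal, a linear brightness, for each probe set. The 3 groups of 3 arrays held cells of tumor-free mice, cells of tumor-bearing mice at time 0 (fresh) and cells of tumor-bearing mice kept for 24 h in complete medium (cultured). No source used here names the tumor, the strain or any pooling of mice. None says that replicates were separate mice either, so the p-values rest on a spread between arrays that may be technical. Tumor-free cells were not cultured, so tumor and culture cannot be told apart between cultured tumor-bearing and tumor-free cells.

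Chemokines are small secreted proteins that direct leukocyte movement through receptors coupled to G proteins. Cxcl1 and Cxcl2 are ligands of Cxcr2, the receptor that brings neutrophils out of the bone marrow and into inflamed tissue, and their genes are induced through NF-kB. Cxcl9 and Cxcl10 are induced by interferons and attract activated T cells and NK cells through Cxcr3. Cxcr4 binds Cxcl12 and holds myeloid cells and their precursors in the bone marrow. CD11b, integrin alpha M, is carried by neutrophils, monocytes and many macrophages, so the sorted cells can both send and receive these signals.

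Each group held a similar pair of arrays and 1 array unlike it: tumor-free 1, fresh 3 and cultured 3. Across tested probe sets each of them correlated with the others of its group at r between 0.823 and 0.900, and the pairs at 0.929 to 0.957. Tumor-free 1 had a beta-actin 3'/5' ratio, a sign of RNA quality, of 2.57 (0.994 and 1.19 for its pair), and cultured 1 and 2 had 2.27 and 2.36 against 1.16 on cultured 3. The same ratio for Gapdh was 1.63 on tumor-free 1 (0.924 and 1.11 for its pair). It was 0.98 and 1.26 on cultured 1 and 2 against 0.836 on cultured 3, and highest on fresh 3, at 1.69. The gene of CD11b itself, Itgam, gave signals between 244 and 954 on all 9 arrays and was not called in any comparison. Marker genes differed on tumor-free 1 in both directions. Of 16 tested neutrophil genes it was below both other tumor-free arrays for 10, such as the granule gene Camp (150 against 8809 and 10458). It was above both for 5, such as the collagenase gene Mmp8 (1640 against 141 and 218). The summed neutrophil signal was 43020 against 46350 and 51810, much of it from S100a8 and S100a9 (15965 and 12182 on tumor-free 1). Of 10 tested macrophage genes tumor-free 1 was below both for 8, such as the adhesion gene Vcam1 (55.2 against 1975 and 2316), and above both for Mrc1 and Msr1. Its summed signal was 235 against 2812 and 3210 for B cell genes and 1893 against 614 and 747 for stromal genes. Results that rest on these arrays are given with and without them, and the part of RNA quality or cell makeup in them was not tested.

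Cxcl1, a neutrophil attractant, was the chemokine gene that rose in fresh tumor-bearing cells and fell in culture. Its brighter probe set, 95348_at, gave 2478, 2327 and 2016 on the 3 fresh arrays, 774, 167 and 93.6 on the tumor-free arrays and 188, 180 and 236 on the cultured arrays. Every fresh array lay above every other array, and tumor-free 1 lay between the groups. The mean signal was 2274 ± 235 (SD, n = 3) in fresh cells against 345 ± 373 in tumor-free and 201 ± 30.03 in cultured cells, 6.59-fold and 11.3-fold higher. Fresh cells were 3.24 ± 0.58 higher than tumor-free cells on the log2(signal + 7.83) scale (SE, limma adjusted p = 0.0178), and cultured cells changed by -3.45 ± 0.58 against fresh cells (limma adjusted p = 0.0115). Cultured and tumor-free cells overlapped and were next to each other in the order of levels, with a difference of -0.21 ± 0.58 (limma adjusted p = 0.917). In bulk RNA, fewer cells of a type and less RNA per cell cannot be told apart, for Cxcl1 and for every gene below.

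The other Cxcl1 probe set, 95349_g_at, had the same order of groups and followed the first at r = 0.986 over the 9 arrays. It gave 1507, 1330 and 1394 on the fresh arrays, 864, 74.7 and 50.9 on the tumor-free arrays and 109, 109 and 157 on the cultured arrays. The fall from fresh to cultured cells passed the test, at -3.43 ± 0.78 (limma adjusted p = 0.0434). The difference between fresh and tumor-free cells, 3.13 ± 0.78, did not (limma adjusted p = 0.0745), although the groups did not overlap. Tumor-free 1 was 13.8-fold the mean of tumor-free 2 and 3 on this probe set and 5.93-fold on the brighter one. Without tumor-free 1 the darker probe set also passed, at 4.35 (limma adjusted p = 4.15e-05), and fresh cells had 17.4-fold and 22.5-fold the mean signal of tumor-free 2 and 3 on the 2 probe sets.

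The rise of Cxcl1 in fresh cells lost its call when tumor-free 2 (adjusted p = 0.0871), tumor-free 3 (0.0571), fresh 1 (0.0817) or fresh 2 (0.0837) was left out, with the log2 difference between 2.62 and 3.22. The fall in culture of 95348_at lost it without fresh 1 (0.0582), fresh 2 (0.0556) or cultured 2 (0.0571). That of 95349_g_at lost it without any 1 of the 6 tumor-bearing arrays, with adjusted p up to 0.15, and also under median centring (0.0543), a smaller offset (0.0501), no filter (0.0599) and no intensity trend (0.0522). The arrays were also split at the median of their bacterial spike-in signal. The high class held tumor-free 1, fresh 1 and 2 and cultured 1 and 2. The low class held the other 4, with 1 fresh and 1 cultured array. No source used here names a batch, so the classes cut a continuous value and are not known batches. On a log2 scale fresh 2 (9.864, high class) lay closer to tumor-free 2 (9.769, low class) than to cultured 1 (10.5, high class). The rise of 95348_at was 2.97 with the class as a block (adjusted p = 0.0177), 1.62 among high-class and 3.92 among low-class arrays. Its fall in culture was -3.45, -3.65 and -3.06 in the same order.

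**Figure D1:**
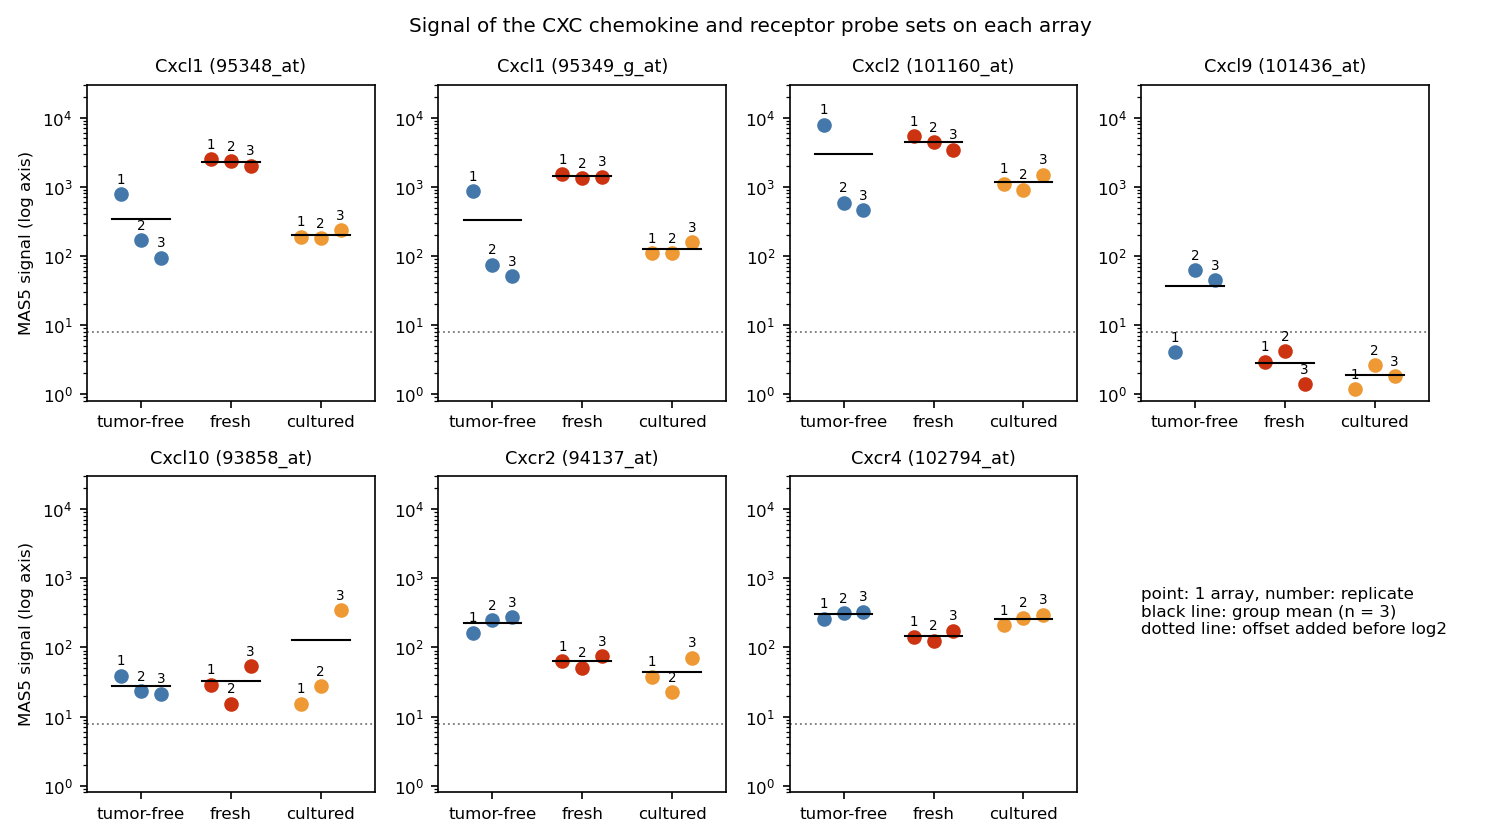
MAS5 signal of the 7 CXC probe sets on each of the 9 arrays, on a log axis, with 1 panel for each probe set and 1 point for each array numbered by replicate. The black line is the group mean of 3 arrays and the dotted line the offset of 7.83 added before log2. The fresh arrays lie together at the top for both Cxcl1 probe sets, tumor-free 1 lies far above tumor-free 2 and 3 for Cxcl2, and cultured 3 lies alone at the top for Cxcl10.

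Cxcl2, another Cxcr2 ligand, was high in fresh cells but varied most among the tumor-free arrays. Its probe set, 101160_at, gave 5376, 4405 and 3417 on the fresh arrays, 1104, 900 and 1485 on the cultured arrays and 7835, 585 and 458 on the tumor-free arrays. The highest signal of all 9 arrays was on tumor-free 1, 15.0-fold the mean of tumor-free 2 and 3, so the fresh and tumor-free groups overlapped. The group means were 4399 ± 979 in fresh, 2959 ± 4223 in tumor-free and 1163 ± 297 in cultured cells (SD, n = 3 each), and neighbours in that order did not differ beyond their spread. Fresh minus tumor-free cells was 1.74 ± 0.84 (limma adjusted p = 0.319), cultured minus fresh -1.92 ± 0.84 (limma adjusted p = 0.284) with no overlap, and cultured minus tumor-free -0.17 ± 0.84 (limma adjusted p = 0.954).

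The Cxcl2 values turned on tumor-free 1. Without that array fresh cells were 3.04 higher than tumor-free cells (limma adjusted p = 0.000254), with 8.44-fold the mean signal of tumor-free 2 and 3, and the change of -1.92 in culture passed the test (limma adjusted p = 0.00321). The difference between cultured and tumor-free cells turned from -0.17 to 1.13 (limma adjusted p = 0.0566). Within the high spike-in class, where tumor-free 1 is the only tumor-free array, fresh minus tumor-free cells was -0.69, and within the low class 2.71, against 1.32 with the class as a block. With all 9 arrays, only 38.7% of the variance of Cxcl2 lay between the groups, against 82.5% and 70.3% for the 2 Cxcl1 probe sets. Cxcl1 (95348_at) and Cxcl2 correlated at r = 0.887 over the 9 arrays, and at 0.982 after the group means were taken away. This second value describes how far both stood apart on the same arrays, foremost tumor-free 1.

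Cxcl1 and Cxcl2 are neighbours on mouse chromosome 5, in a cluster with Cxcl15, Cxcl3 and Pf4. Their promoters are shown because both genes shared the order of groups over all arrays except tumor-free 1, and because NF-kB is the factor best known for inducing them. The 250 bases before each gene's start were taken from RefSeq (GRCm38.p6) and searched on both strands for a pattern of NF-kB type, GGG and TTTCC with any 2 bases between them. Capitals mark the matches. The Cxcl1 window is chr5:90890995-90891244 and the Cxcl2 window chr5:90903649-90903898, both on the plus strand.
Cxcl1: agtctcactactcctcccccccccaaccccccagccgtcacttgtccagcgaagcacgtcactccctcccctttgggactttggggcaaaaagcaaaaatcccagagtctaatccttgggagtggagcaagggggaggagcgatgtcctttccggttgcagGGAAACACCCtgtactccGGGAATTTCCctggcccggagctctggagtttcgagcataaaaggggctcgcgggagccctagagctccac
Cxcl2: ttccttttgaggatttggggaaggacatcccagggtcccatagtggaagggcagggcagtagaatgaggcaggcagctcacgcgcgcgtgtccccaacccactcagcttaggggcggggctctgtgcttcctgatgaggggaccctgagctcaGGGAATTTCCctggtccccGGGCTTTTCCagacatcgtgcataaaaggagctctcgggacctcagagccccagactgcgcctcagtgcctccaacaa
Each window holds 2 matches. In Cxcl1 they begin 89 and 71 bases before the start, the first of them on the opposite strand, and in Cxcl2 they begin 97 and 78 bases before it. The match GGGAATTTCC occurs in both. Of 32851 promoter windows of this length, 1.41% hold the pattern. A pattern of C/EBP type, TTGC and AA with any 2 bases between them, is in 9.56% of the windows and in none of the 6 genes described here, and such matches describe letters, not binding.

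Other genes that NF-kB induces, listed together with its subunit and inhibitor genes such as Rela and Nfkbib, were higher in fresh cells in part. Of 23 tested genes of a list of 25, 4 rose in fresh against tumor-free cells and none fell, with all 23 differences above 0 and a median of 1.34 against 0.0093 for all tested probe sets. The cytokine gene Il1a rose by 4.87 ± 0.63 (limma adjusted p = 0.00274), from a mean signal of 137 to 3347. The mitochondrial superoxide dismutase gene Sod2 rose by 2.24 (adjusted p = 0.0452), Tnip1, an inhibitor of NF-kB signaling, by 1.61 (adjusted p = 0.0137), and Nfkb2, an NF-kB subunit, by 1.55 (adjusted p = 0.0261). In culture none of the 23 passed limma's test, with 11 at an unadjusted p below 0.05 and a median of -1.07. Among all 8695 tested probe sets, 1420 had an unadjusted p below 0.05 in cultured against fresh cells. Against tumor-free cells, cultured cells had 1 gene that rose, Sod2 (2.71, limma adjusted p = 0.0229), and a median of 0.34. The first count was 12 without tumor-free 1, where 7.17% of all probe sets were called, against 1.90% with all arrays. It was between 1 and 6 without any other 1 array. Without tumor-free 1, 7 genes fell in culture and 7 rose in cultured against tumor-free cells, where 5.62% and 6.08% of all probe sets were called. Without tumor-free 2 or 3 or cultured 1 or 2, the count that rose in cultured against tumor-free cells was 0. Il1a kept its call whichever array was left out, and Sod2, Tnip1 and Nfkb2 lost theirs without tumor-free 2, among others.

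The summed signal of this NF-kB list also set tumor-free 1 apart. It was 31690 on tumor-free 1, 10260 and 8588 on tumor-free 2 and 3, 31250 to 33180 on the fresh and 12820 to 19340 on the cultured arrays. The sum is carried by a few bright genes such as Il1b, Ier3, Nfkbia and Ccl3. Gene by gene, tumor-free 1 was at or above the lowest fresh array for 8 of the 23 tested genes, between the other tumor-free and the fresh arrays for 7, and below the higher of the other tumor-free arrays for 8. For Il1a, Sod2, Nfkb2 and Tnip1, the genes that passed the test in fresh cells, it lay below all fresh arrays, with 280 for Il1a and 156 for Tnip1. The genes most like Cxcl2 over the 9 arrays had the same shape: Nfkbia, an NF-kB inhibitor, at r = 0.976, Il1r2, a decoy receptor of interleukin 1, at 0.969, and Plaur, the urokinase receptor, at 0.966. Il1r2 gave 5866 on tumor-free 1, 148 and 142 on tumor-free 2 and 3 and 2442 to 3358 on the fresh arrays. Those most like Cxcl1 were Sipa1l2 (0.979), Hopx (0.967) and the phosphatase gene Dusp16 (0.961), each highest on the fresh arrays. All these correlations rest on the same 9 arrays and on 3 group means.

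Some lists of cell type markers had their highest or lowest summed signals on the fresh arrays. Of all tested probe sets, 0.943% were called higher in fresh against tumor-free cells and 0.955% lower. Of 5 pancreatic acinar genes on the array, all tested, 4 rose in that comparison. Their summed signal was 5206 to 8819 on the fresh arrays against 401 to 647 on the tumor-free and 381 to 759 on the cultured arrays. Of 16 tested neutrophil genes 1 fell and none rose in fresh cells, with a median of 1.76, and their summed signal was 61610 to 73730 on the fresh, 43020 to 51810 on the tumor-free and 17130 to 53490 on the cultured arrays. The neutrophil sum is carried by bright genes such as S100a8 and S100a9. The neutrophil median was 0.62 without tumor-free 1, with 4 genes that rose, where 7.17% of all probe sets were called. Of 10 tested macrophage genes 5 fell, with summed signals of 1691 to 1900 on the fresh, 4017 to 13370 on the tumor-free and 3030 to 3994 on the cultured arrays. That count was 9 without tumor-free 1, where 7.17% of all probe sets were called. It was 3 without cultured 2, and 0 or 1 without tumor-free 2 or 3 or any 1 fresh array. The share of all probe sets called also moved with the array left out. Most of the macrophage sum on the cultured arrays came from Hmox1, with 2606, 3273 and 2662. In cultured against fresh cells the 10 macrophage genes had a median of -0.26, with 5 differences above 0. Of 5 tested erythroid genes none passed limma's test, with 3 at an unadjusted p below 0.05 and a median of 0.90 in fresh cells, and their summed signal was 4662 to 6339 on the fresh arrays, 480 to 2255 on the tumor-free and 1751, 686 and 6942 on the cultured arrays. In culture their median was -0.92, again with none that passed and 3 at an unadjusted p below 0.05. Most of the erythroid sum came from the hemoglobin gene Hba-a1, with 4269, 4203 and 5857 on the fresh and 1522, 549 and 6541 on the cultured arrays. Among all 8695 tested probe sets, 1449 had an unadjusted p below 0.05 in fresh against tumor-free and 1420 in cultured against fresh cells. Some markers of these lists had signals below the offset on some arrays. The acinar gene Prss2 gave 7.55 on tumor-free 3 and 4.85 and 3.97 on cultured 2 and 3, and lay above the offset elsewhere. The part of these markers in the results for the CXC genes was not tested.

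**Figure D2:**
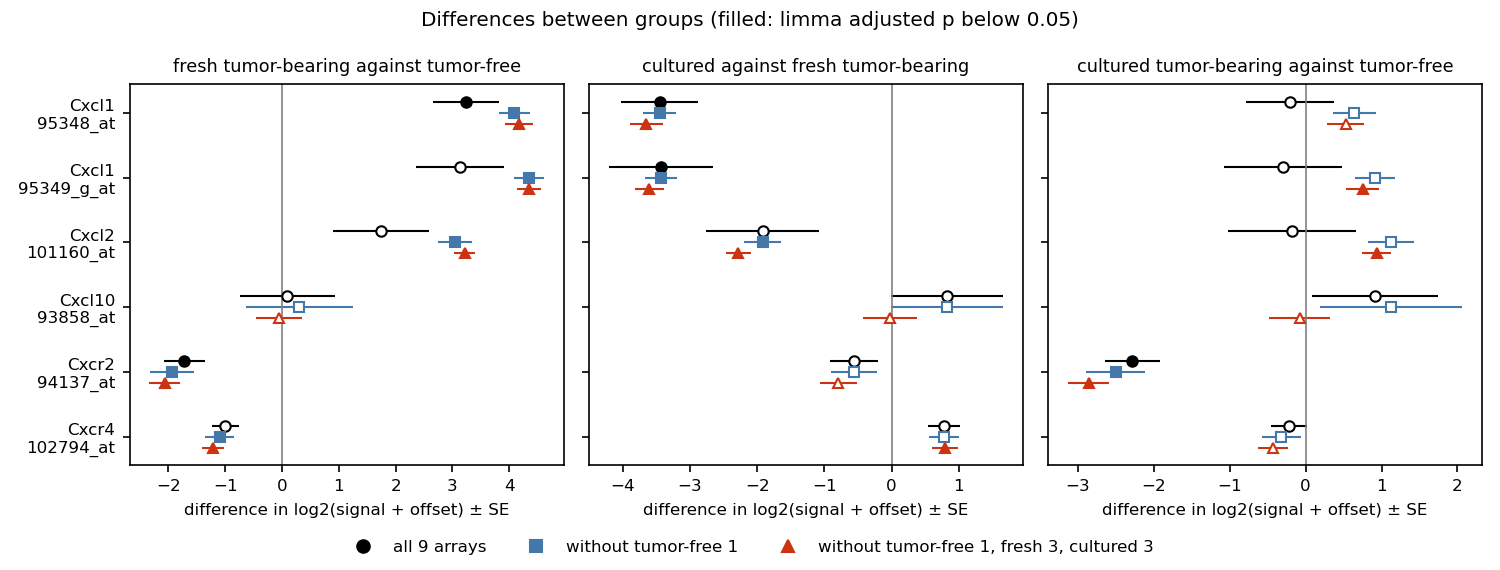
Difference between groups in log2(signal + 7.83) for the 6 tested CXC probe sets, with bars of 1 SE, in the 3 comparisons. Circles use all 9 arrays, squares leave out tumor-free 1 and triangles leave out tumor-free 1, fresh 3 and cultured 3, and filled symbols had a limma adjusted p below 0.05. Cxcl2 moved from 1.74 to 3.04 in the first comparison when tumor-free 1 was left out, and Cxcr2 lay below 0 with each choice of arrays in all 3 comparisons.

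Cxcl9, an interferon-induced ligand of Cxcr3, was measured above the offset on only 2 of the 9 arrays. Its probe set, 101436_at, gave 62.2 and 44.4 on tumor-free 2 and 3, 4.07 on tumor-free 1, 2.96, 4.20 and 1.39 on the fresh arrays and 1.19, 2.65 and 1.81 on the cultured arrays. The 7 values below the offset of 7.83 have no order among themselves, so no order of the groups is drawn from them. Without the filter, fresh against tumor-free cells did not pass the test (limma adjusted p = 0.165, 12422 probe sets tested). Neither did cultured against tumor-free cells (limma adjusted p = 0.169). As all fresh and cultured signals lie below the offset, no size is given for these differences. The genes most like Cxcl9 were Vps72 (r = 0.982), Otulinl (0.980) and the lysosomal protease gene Tpp1 (0.974), all highest on tumor-free 2 and 3. The summed macrophage signal was likewise high on those arrays, 12250 and 13370, and 4017 on tumor-free 1. Whether macrophages account for Cxcl9 was not tested.

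Cxcl10, the other interferon-induced chemokine gene, was dim on 8 arrays and high on 1. Its probe set, 93858_at, gave 38.7, 23.3 and 21.4 on the tumor-free arrays, 28.7, 15.3 and 53.5 on the fresh arrays and 15.3, 27.4 and 342 on the cultured arrays. Cultured 3 was 16.04-fold the mean of cultured 1 and 2, and the groups overlapped in every comparison. The means were 27.8 ± 9.51 in tumor-free, 32.5 ± 19.4 in fresh and 128 ± 186 in cultured cells (SD, n = 3 each), and 21.4 for cultured 1 and 2 alone. The differences were 0.10 ± 0.83 for fresh minus tumor-free cells (limma adjusted p = 0.963), 0.82 ± 0.83 for cultured minus fresh (0.703) and 0.92 ± 0.83 for cultured minus tumor-free cells (0.672). Without cultured 3 the last 2 turned to -0.38 and -0.29. Only 13.1% of the variance of Cxcl10 lay between the groups.

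Cxcl10 and Cxcl9 lie near each other on chromosome 5, with Art3 between them. The promoter of Cxcl10 is shown because it holds a pattern of interferon response type, GAAA and GAAA with any 2 bases between them, and because Cxcl10 is known as an interferon-induced gene. The 250 bases before its start, chr5:92348890-92349139 on the minus strand (RefSeq, GRCm38.p6), are written in the direction of the gene, with the match in capitals.
Cxcl10: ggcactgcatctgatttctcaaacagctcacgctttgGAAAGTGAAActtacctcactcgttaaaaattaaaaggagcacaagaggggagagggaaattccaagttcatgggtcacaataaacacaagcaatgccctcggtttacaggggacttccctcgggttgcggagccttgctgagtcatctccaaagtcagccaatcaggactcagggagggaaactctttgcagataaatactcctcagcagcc
The match begins 213 bases before the start, and 2.98% of the 32851 windows hold the pattern on either strand. The windows of Cxcl9, Cxcr2 and Cxcr4 hold none of the 3 patterns searched.

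Interferon-induced genes were lower in fresh cells and higher in culture, in part. Of 23 tested genes of a list of 28, 2 fell in fresh against tumor-free cells and none rose. Of all tested probe sets 0.955% were called lower there and 0.943% higher. The 23 had a median of -1.61, and 13 had an unadjusted p below 0.05, against 1449 of all 8695 tested probe sets. The transcription factor gene Irf7 fell by 1.95 (limma adjusted p = 0.0304). Usp18, which removes ISG15 from proteins, also fell (limma adjusted p = 0.0162), from 185, 98.8 and 88.7 to 2.09, 3.70 and 5.59. Its fresh signals all lie below the offset of 7.83, so no size is given for its differences. In cultured against fresh cells 1.52% of all tested probe sets were called higher and 1.17% lower. Of the 23 genes 8 rose there and none fell, with a median of 2.08. Among those that rose were Usp18 (limma adjusted p = 0.00866), to 56.4, 122 and 473, and the GTPase gene Igtp (3.08 ± 0.58, limma adjusted p = 0.0181). The GTPase gene Ifi47 rose as well (limma adjusted p = 0.0206), from 23.8, 7.36 and 17.1 to 88.8, 232 and 1265, with 1 fresh signal below the offset. Another GTPase gene, Gbp2, had a difference of 3.79 that did not pass the test (limma adjusted p = 0.0513). The transcription factor gene Irf1 rose from 169 ± 24.4 to 969 ± 303 (limma adjusted p = 0.000857). Against tumor-free cells, the peptide transporter gene Tap1 and Irf1 rose in cultured cells, by 1.66 (limma adjusted p = 0.0299) and 1.34 (limma adjusted p = 0.0362). The list's median was 0.29, and 0.587% of all tested probe sets were called higher in that comparison. A further Irf7 probe set gave -0.33 in fresh cells and a further Tap1 probe set gave 0.28 in cultured against tumor-free cells and -0.39 in cultured against fresh cells, opposite to the brighter one, and neither passed the test.

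Cultured 3 was the highest array in this list too, with a summed signal of 19100 against 4417 and 6990 on cultured 1 and 2, 5024 to 6138 on the tumor-free and 2030 to 2913 on the fresh arrays. The count of 8 was 4 without any 1 fresh array and 5 without cultured 2. Leaving out cultured 3 took the median of the cultured against fresh comparison from 2.08 to 1.17, with 7 genes that rose, and turned that of the cultured against tumor-free comparison to -0.40. In fresh against tumor-free cells the count that fell was 9 without cultured 3 and 0 without tumor-free 2, fresh 1 or fresh 2. It was 6 without tumor-free 1, where 7.17% of all probe sets were called. Counts over all probe sets also moved with the array left out, so these counts are not compared with each other. Usp18, Irf1, Irf7 and Tap1 kept their calls in culture whichever array was left out, and Igtp and Ifi47 lost theirs without fresh 1, 2 or 3. Tap1 and Irf1 lost theirs against tumor-free cells without tumor-free 2 or 3, fresh 1 or 2 or cultured 2, and Irf1 also without cultured 1. Genes most like Cxcl10 were Ifih1 (r = 0.936), a sensor of viral RNA, Isg15 (0.932), a ubiquitin-like protein, and the cathepsin gene Ctsd (0.914). Isg15 gave 2250 on cultured 3 against 334 and 486 on its pair. The gene of CD11b was highest on cultured 3 as well, at 954 against 363 and 333.

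**Figure D3:**
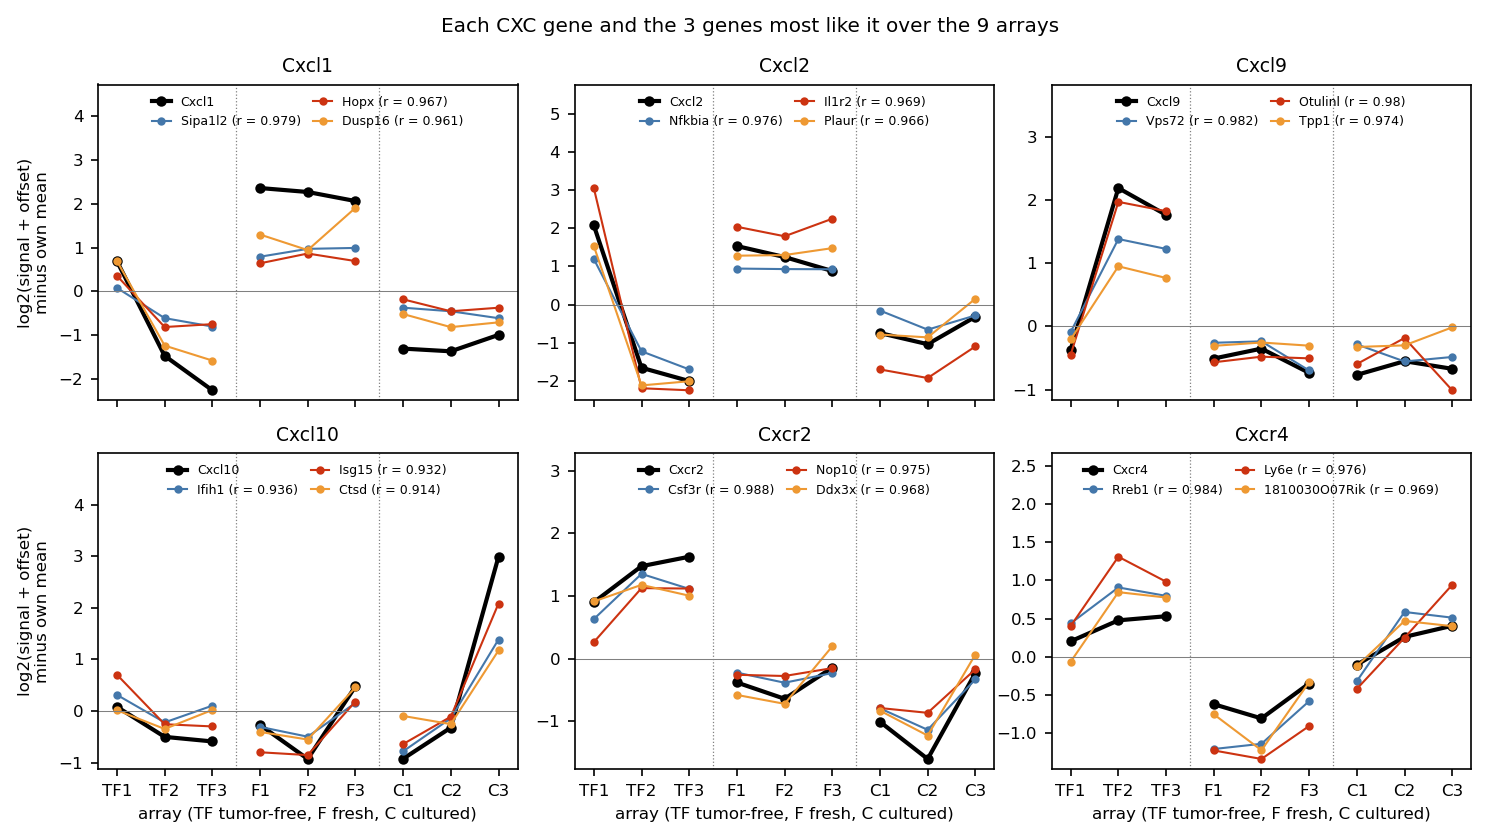
For each of the 6 CXC genes, log2(signal + 7.83) minus its own mean over the 9 arrays (thick black) beside the 3 genes with the highest Pearson r (thin lines). The arrays are 3 tumor-free (TF), 3 fresh (F) and 3 cultured (C), and lines join arrays of a group, whose replicate numbers have no order. Cxcl2 and its nearest genes are high on TF1, Cxcl9 and its nearest genes on TF2 and TF3, and Cxcl10 and its nearest genes on C3.

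Cxcr2, the receptor of Cxcl1 and Cxcl2 on neutrophils, was lower in tumor-bearing cells, fresh and cultured. Its probe set, 94137_at, gave 163, 247 and 275 on the tumor-free arrays, 62.6, 51.0 and 75.2 on the fresh arrays and 37.8, 22.4 and 70.4 on the cultured arrays. Every tumor-free array lay above every tumor-bearing array, and fresh and cultured arrays overlapped. The mean fell from 229 ± 58.3 to 62.9 ± 12.1 in fresh cells (SD, n = 3), 3.63-fold lower, a log2 difference of -1.72 ± 0.36 (limma adjusted p = 0.0385). In cultured cells it was 43.5 ± 24.5, 5.25-fold lower than in tumor-free cells, a difference of -2.28 ± 0.36 (limma adjusted p = 0.0144). Cultured and fresh cells were next to each other in the order of levels and differed by -0.56 ± 0.36 (limma adjusted p = 0.506).

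The fall of Cxcr2 in fresh cells was close to the threshold. It lost its call under quantile normalization (adjusted p = 0.0527), median centring (0.0588) and no filter (0.0536), and without tumor-free 2 (0.17), tumor-free 3 (0.167), fresh 1 (0.142), fresh 2 (0.163), fresh 3 (0.054) or cultured 1 (0.0595). The difference lay between -2.06 and -1.41 in all 21 alternatives, and was -1.49 when blocked by spike-in class (adjusted p = 0.0184), -1.41 among high-class arrays (0.0912) and -1.70 among low-class arrays. Leaving out tumor-free 2 (0.0662), tumor-free 3 (0.0801), cultured 1 (0.0571) or cultured 2 (0.0573) ended the call in cultured cells, as did a fit of only these 2 groups (0.0814).

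The gene most like Cxcr2 over the 9 arrays was Csf3r (r = 0.988), the receptor of the growth factor G-CSF on neutrophils. Csf3r gave 965, 1596 and 1351 on the tumor-free, 530, 473 and 528 on the fresh and 355, 278 and 491 on the cultured arrays. It fell by 1.31 in fresh cells (limma adjusted p = 0.0413) and fell by 1.79 in cultured cells (limma adjusted p = 0.0133), and lost the first call without either tumor-free 2 or 3, any fresh array or cultured 1, and the second without tumor-free 2 or 3 or cultured 1 or 2. Further Csf3r probe sets gave -0.08 and -0.89 in fresh cells and -0.17 and -1.82 in cultured cells, and neither passed the test. Csf3r was the neutrophil gene that fell in fresh cells, where 14 of the 16 neutrophil genes had differences above 0. Nop10 (0.975), a small nucleolar protein gene, and the RNA helicase gene Ddx3x (0.968) came next.

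Cxcr4, the receptor of Cxcl12, was lowest in fresh cells. Its probe set, 102794_at, gave 143, 124 and 174 on the fresh arrays, 207, 269 and 298 on the cultured arrays and 258, 314 and 326 on the tumor-free arrays. All fresh arrays lay below all others, and the cultured and tumor-free arrays overlapped. The means were 147 ± 24.9 in fresh, 258 ± 46.5 in cultured and 299 ± 36.2 in tumor-free cells (SD, n = 3 each), so the fresh mean was 2.04-fold below the tumor-free mean and the cultured mean 1.76-fold above the fresh mean. The differences of -0.995 ± 0.24 for fresh minus tumor-free cells (limma adjusted p = 0.0687) and 0.78 ± 0.24 for cultured minus fresh cells (limma adjusted p = 0.127) did not pass the test, nor did -0.22 ± 0.24 for cultured minus tumor-free cells (limma adjusted p = 0.743).

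With the spike-in class of the arrays as a block, the Cxcr4 values of -0.88 in fresh cells (limma adjusted p = 0.0484) and 0.78 in culture (limma adjusted p = 0.0435) passed. Without tumor-free 1 the first was -1.10 (limma adjusted p = 0.0286). Most alternatives gave no call: of 21, the first difference passed in 4 and the second in 2. Of the variance of Cxcr4, 84.4% lay between the groups, and of that of Cxcr2 86.1%. Cxcr4 ran opposite to Cxcl1 over the 9 arrays (r = -0.877), and at -0.433 after the group means were taken away, while the 2 receptors correlated at 0.490. Most like Cxcr4 were Rreb1 (0.984), a zinc finger transcription factor, Ly6e (0.976) and 1810030O07Rik (0.969). Ly6e, an interferon-induced surface protein, gave 861 to 1163 on the fresh, 1633 to 4206 on the cultured and 2892 to 5429 on the tumor-free arrays, and fell in fresh cells (-2.05, limma adjusted p = 0.0203).

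Other genes of the CXC system gave few calls. Of 11 further CXC chemokine genes 5 were on the array and 3 tested, and none passed limma's test in any comparison, nor did any have an unadjusted p below 0.05. Cxcl5, another Cxcr2 ligand, gave 285 on tumor-free 1 and 4.90 to 50.6 on the other 8 arrays, so that array was again the highest (fresh minus tumor-free -0.76 ± 0.90, limma adjusted p = 0.696). Cxcl12, the ligand of Cxcr4, gave 21.8 to 50.5 on the 9 arrays with no call (0.04 ± 0.34 in fresh cells, limma adjusted p = 0.964). Pf4 and Cxcl13 were too dim to be tested.

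Of 7 further CXC and atypical receptor genes 5 were on the array and 3 tested. Ccrl2, an atypical receptor that binds chemerin, fell in culture from 352 ± 69.9 to 152 ± 24.0 (-1.16 ± 0.25, limma adjusted p = 0.0354). This call was lost without tumor-free 2 or any 1 of the 6 tumor-bearing arrays (adjusted p up to 0.141). Ackr3, a scavenger receptor of Cxcl12, gave 7.34, 15.3 and 1.75 on the fresh and 296, 75.8 and 20.3 on the cultured arrays (limma adjusted p = 0.0956, and 0.0164 without cultured 3). As 2 of its 3 fresh signals lie below the offset, no size is given for that difference. Cxcr3, the receptor of Cxcl9 and Cxcl10, gave 6.07 to 50.5 over the 9 arrays with no call.

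In fresh against tumor-free cells, 0.955% of all tested probe sets were called lower and 0.943% higher. Of 22 tested genes of chemokine receptor signaling 1 fell in that comparison and none rose, with a median of -0.11. It was Rgs2, a regulator that turns off G proteins, which fell from 1020 ± 547 to 85.2 ± 24.7 (-3.30 ± 0.48, limma adjusted p = 0.00571) and kept its call whichever array was left out. Rgs2 fell too in cultured against tumor-free cells (-2.34 ± 0.48, limma adjusted p = 0.0439), a call that only the fit without tumor-free 1 kept among those without 1 array (adjusted p up to 0.194). In cultured against fresh cells none of the 22 passed limma's test, and none had an unadjusted p below 0.05 (median -0.12). The lists were counted over genes that passed the filter on low values, which a gene bright in 1 group alone can pass.

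**Figure D4:**
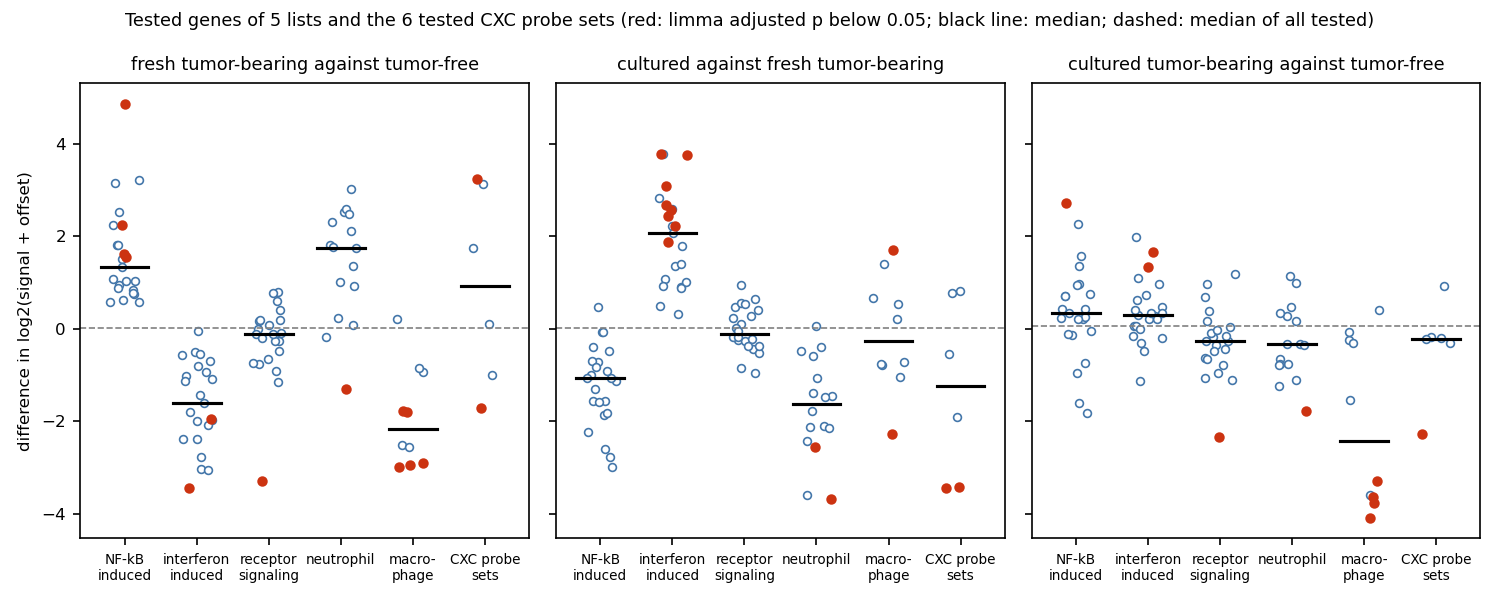
Difference in log2(signal + 7.83) for each tested gene of 5 lists and for the 6 tested CXC probe sets in the 3 comparisons. Red points had a limma adjusted p below 0.05, the black line is the median of each list and the dashed line the median of all tested probe sets. In fresh against tumor-free cells the genes of the NF-kB list all lie above 0 and the interferon-induced genes all below 0. In cultured against fresh cells the interferon-induced genes all lie above 0.

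Over the 6 tested CXC probe sets, 2 were called in fresh against tumor-free cells, Cxcl1 (95348_at) higher and Cxcr2 lower, where 1.90% of all 8695 tested probe sets were called, 0.943% higher and 0.955% lower. Their groups did not overlap for 2 higher and 2 lower CXC probe sets, against 9.34% and 13.1% of all probe sets. In cultured against fresh cells 2 were called, both for Cxcl1 and both lower, against 2.69% of all probe sets, 1.52% higher and 1.17% lower, and the groups did not overlap for 1 higher and 3 lower, against 13.4% and 8.81%. In cultured against tumor-free cells 1 was called, Cxcr2, against 1.23% of all, 0.587% higher and 0.644% lower, and the groups did not overlap for none higher and 1 lower, against 10.3% and 8.20%. The median difference of the 6 was 0.92, -1.24 and -0.21 in the 3 comparisons, against 0.0093, 0.0241 and 0.0507 over all tested probe sets. The 3 comparisons share arrays, so their values are given side by side only, and the genes were chosen with results of these data known.

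Without tumor-free 1, 5 of the 6 CXC probe sets were called in fresh against tumor-free cells, all except Cxcl10, where 7.17% of all probe sets were called. The counts were then 3 and 1 in the other comparisons, against 5.62% and 6.08%. Without tumor-free 1, fresh 3 and cultured 3 together they were 5, 4 and 3, against 24.7%, 15.8% and 20.8% of all probe sets. The arrays kept in that fit are the closest pairs, so their spread is small by choice. In it Cxcr4 was higher in cultured than in fresh cells (0.79, limma adjusted p = 0.03), and Cxcl2 was higher in cultured than in tumor-free cells (0.94, limma adjusted p = 0.0112).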

How the data were processed

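Each deposited value is an intensity, the linear MAS5 signal of 1 probe set on 1 array, per the submitters' processing notes. The MAS5 version is not given in the sources used. The arrays shared a 2% trimmed mean of 100.06 to 100.08, so they had been scaled before deposit, and no further scaling was done. Array medians were 33.4 to 42.8. Without detection calls, no signal can be placed above or below background, and 3 arrays a group limit the precision.

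An offset of 7.83, the 20th percentile of all signals, was added before log2 was taken. Between 16.5% and 23.6% of an array's signals were smaller than it, and on this scale the change of a dim gene is understated. After removal of 66 control probe sets and of the dimmest 30%, 8695 remained. The 9 arrays entered a single limma model (version 3.58.1, in R 4.3.3) of 3 group means, with an intensity trend and 6 residual degrees of freedom. Tests were two-sided, adjusted by Benjamini-Hochberg over the 8695, with 0.05 as the threshold. The code was tested on simulated data.

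The platform annotation named 10855 probe sets by 1 symbol and 396 by several, and left 1237 unnamed. Of the first, 10839 matched RefSeq by gene ID, and 0 symbols changed. A list gene stands for its brightest probe set. All 7 CXC probe sets are named, with the 3 genes most like each CXC gene by Pearson r, and up to 3 called genes per list and direction, or up to 2 where none was called. Camp, Vcam1, Itgam, Nfkb2, Irf1, Irf7, Cxcr3, Pf4 and Cxcl13 were named after their values were seen. So were Hmox1, S100a8, S100a9, Hba-a1, Prss2, Rela and Nfkbib. The CXC genes and all lists were chosen with earlier results of these data known.

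Alternatives were quantile normalization, median centring, offsets at the 5th and 40th percentile, no filter, no trend, only the 2 groups compared, a replicate block, the spike-in class as a block, each class alone, and each array left out. The spike-in class is high for arrays at or above the median of the bacterial control signal (tumor-free 1, fresh 1 and 2, cultured 1 and 2) and low for the other 4. Leaving out tumor-free 1, fresh 3 and cultured 3 together, and lists with arrays left out, were added after the data were seen.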

Additional observations from a re-analysis of the deposited data

How the results depend on the processing

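Comparisons are given in the order fresh against tumor-free, cultured against fresh and cultured against tumor-free. The main counts were 2, 2 and 1 of the 6 tested CXC probe sets and 165, 234 and 107 of all probe sets. With the replicate block they were 2, 2 and 1, and 200, 258 and 144. No source used here says whether arrays with the same replicate number were paired. Correlations of same-numbered deviations from the group means were -0.2 to 0.26, and with 3 arrays a group they cannot settle it. The block changed no call of a CXC probe set.

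Among CXC probe sets, the first count was 1 under quantile normalization, median centring and no filter, the second was 1 under median centring, the offset at the 5th percentile, no filter and no intensity trend, and the third was 0 with only the 2 groups compared. With the high spike-in class alone the first was 1 and the third 4, with the low class alone they were 6, 4 and 5, and without the 3 arrays that stand apart 5, 4 and 3. The high class holds 1 tumor-free array and the low class 1 fresh and 1 cultured array, and the spread of such a single array was taken from the groups with 2 arrays. With 1 array left out they were 0 to 5, 0 to 3 and 0 to 1. Among all probe sets the third was 14 with only the 2 groups compared. They were 277, 556 and 177 with the class as a block, 411, 1049 and 444 in the high class, 1967, 1393 and 1725 in the low class, which rests on 1 residual degree of freedom, and 2147, 1374 and 1810 without the 3 arrays. With 1 array left out they were 63 to 623, 74 to 489 and 24 to 529.

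Directions that turned belong to Cxcl10 and Cxcl2 in the first comparison, Cxcl10 in the second, and Cxcl10, Cxcl1 and Cxcl2 in the third. In the high class Cxcl2 was -0.69 in the first comparison, and Cxcl10 was -0.68, -0.0245 and -0.71 in the 3. In the low class the third comparison gave 0.87 and 1.25 for the Cxcl1 probe sets 95348_at and 95349_g_at and 1.51 for Cxcl2. Without the 3 arrays Cxcl10 was -0.0541, -0.0245 and -0.0786, and in the third comparison Cxcl1 was 0.53 and 0.75 and Cxcl2 0.94. With 1 array left out Cxcl10 ranged from -0.26 to 0.44, from -0.38 to 1.57 and from -0.29 to 1.67, and in the third comparison Cxcl1 ranged from -0.83 to 0.64 and from -1.03 to 0.92 and Cxcl2 from -0.91 to 1.13. The other directions of the 6 tested CXC probe sets held in all 21 alternatives.

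No cause of these changes was tested. With 3 arrays a group the SE of a CXC probe set was 0.24 to 0.84 on the log2 scale, and signals near the offset, as for Cxcl9, have little meaning as levels.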
